A study of Mus musculus with 10 samples.

Results

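The interleukin 12 and 27 axis with the Th1 transcription factors was described through 9 genes in colon of mice with dextran sulfate sodium (DSS) colitis. The genes are *Il27*, *Ebi3*, *Il12a*, *Il12b*, *Il27ra*, *Il12rb1*, *Il12rb2*, *Stat4* and *Tbx21*, which are 9 of the 56691 genes in the deposited table. They were chosen from measured values of these same mice, because *Il27ra* had the second smallest unadjusted p-value of all genes between the groups, and the other genes were taken with it as its ligands, relatives and downstream factors. The differences between the groups in these genes are therefore a description and were not tested.

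Colon of 10 male C57/BL6 mice, 8 weeks old when obtained, was sequenced for poly(A) RNA. The DSS group (5 mice, DSS-1 to DSS-5) drank 3% DSS, a sulfated polysaccharide that damages the colon epithelium, for 7 days. The ceAF group (5 mice, ceAF-1 to ceAF-5) drank the same DSS and then received chick early amniotic fluid (ceAF) by gavage at 15 mL/kg for 10 days. Untreated colon was not analysed here, so all comparisons are of ceAF after DSS with DSS alone. Total counts per mouse ranged from 16275884 to 19901549 in the DSS mice and from 14676471 to 18811795 in the ceAF mice. No library was a copy of another, since each of the 45 pairs of mice gave a chi-square per gene of 9.62 or more. The tissue label was checked on 9 epithelial and 3 liver genes. The epithelial marker *Epcam* averaged 2110 ± 313 in DSS and 2076 ± 318 in ceAF colon (SD, n = 5 each), as counts scaled to CPM, the count of a gene relative to all counts of its library, and the liver gene *Alb* averaged 0.260 ± 0.150 and 0.311 ± 0.376 (SD, n = 5 each). The liver genes were not all near 0, as *Ttr*, the most abundant of them, averaged 7.48 ± 1.67 in DSS and 13.2 ± 8.55 CPM in ceAF colon (SD, n = 5 each) and *Apoa1* reached 5.40 CPM in DSS-2. Sums of the epithelial genes ran from 12744 CPM in DSS-5 to 25216 CPM in ceAF-1, and those of the liver genes from 1.60 CPM in ceAF-1 to 22.5 CPM in ceAF-3. Among the epithelial genes *Car1* varied from 115 CPM in DSS-5 to 11922 CPM in ceAF-1.

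Interleukin 12 is a heterodimer of the subunits p35 (*Il12a*) and p40 (*Il12b*), and interleukin 27 is a heterodimer of p28 (*Il27*) and EBI3 (*Ebi3*), and both are made mainly by activated macrophages and dendritic cells. Interleukin 12 binds a receptor of *Il12rb1* and *Il12rb2* on T cells and NK cells and signals through STAT4, which together with T-bet (*Tbx21*) drives the Th1 program and interferon gamma. Interleukin 27 binds *Il27ra* with gp130 (*Il6st*), signals through STAT proteins, and is known in the gut both for promoting early Th1 responses and for restraining inflammation through interleukin 10.

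All 9 genes had a lower group mean in ceAF than in DSS colon, and only *Il27ra* separated the mice of both groups completely. Of the 9 genes, 5 had enough counts to enter the comparison across all genes (*Ebi3*, *Il27ra*, *Il12rb1*, *Stat4* and *Tbx21*), and 4 were too low (*Il27*, *Il12a*, *Il12b* and *Il12rb2*). Among the 16545 genes that entered it, 0 (0%) passed an adjusted p-value under 0.05 (edgeR's quasi-likelihood test, Benjamini-Hochberg) together with a change of 1 or more either way on the log2 scale, while DESeq2 called 25. At an unadjusted p-value under 0.05, 607 genes (3.67%) were lower and 539 (3.26%) were higher in ceAF, and 3 of the 5 members were on the lower and 0 on the higher side. Without DSS-1 the counts were 317 lower and 383 higher, without ceAF-1 they were 932 and 913, and without DSS-5 they were 755 and 840. The groups did not overlap, with ceAF lower, in 77 genes (0.465%), of which *Il27ra* was 1. Nothing is read from these member counts, because the same contrast chose the genes. Since whole colon was sequenced, fewer cells of a type and less RNA per cell cannot be told apart.

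Some libraries stood apart from the rest of their group. DSS-5 had the lowest summed level of 12 T-cell markers in the DSS group, 79.1 CPM against 186 to 208 CPM in the other DSS mice. DSS-1 had the highest neutrophil markers, with a sum of 1519 CPM over 5 genes, and the highest B-cell markers, with 166.9 CPM over 4 genes. Values without these mice are given where they move a member.

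Of the ligand subunits, *Il27*, *Il12a* and *Il12b* did not pass the filter on low counts and *Ebi3* did. *Il27* (ENSMUSG00000044701, chr7:126188182-126194113, minus strand), which encodes the p28 subunit of interleukin 27, had 9, 1, 7, 4 and 1 counts in DSS-1 to DSS-5 and 0, 3, 10, 0 and 1 counts in ceAF-1 to ceAF-5. The highest mouse was ceAF-3, both mice without a count were ceAF mice, and the groups overlapped. *Il27* lies across the gene *Apobr* of the opposite strand, which had 761 counts over all mice, and the sources used here do not state whether strand was used in counting, so reads of the pair may not be separable.

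*Ebi3* (ENSMUSG00000003206, chr17:56259640-56264022, plus strand), which encodes the partner of p28, had 2.78, 0.350, 0.778, 0.704 and 0.660 CPM in DSS-1 to DSS-5. In ceAF-1 to ceAF-5 it had 0.458, 0.716, 0.932, 0.298 and 0.330 CPM. DSS-1 alone was above every ceAF mouse, and the other 4 DSS mice lay within the ceAF range. The log2 fold change of ceAF against DSS was −0.93 (standard error 0.567), and without DSS-1 it was −0.17. DSS-1 held 53.3% of all *Ebi3* counts of the DSS group. *Gm16712* on the opposite strand shares part of the locus and had 40 counts over all mice against 135 for *Ebi3*, so reads of this pair too may not be separable.

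*Il12a* (ENSMUSG00000027776, chr3:68597977-68605880, plus strand), which encodes p35, had 56, 4, 14, 1 and 4 counts in DSS-1 to DSS-5 and 1, 10, 7, 2 and 7 counts in ceAF-1 to ceAF-5. The count in DSS-1 was 70.9% of the DSS total, and the other 4 DSS mice together had 23 counts against 27 in the 5 ceAF mice, with which they overlapped. *Il12b* (ENSMUSG00000004296, chr11:44290890-44304860, plus strand), which encodes p40, had 8, 20, 8, 14 and 6 counts in the DSS mice and 3, 12, 11, 2 and 3 counts in the ceAF mice, in the same order. Here DSS-2 and DSS-4 were highest, DSS-1 did not stand out, and ceAF-1, ceAF-4 and ceAF-5 were below every DSS mouse in CPM. In a fit without a filter on low counts the log2 fold changes were −0.60 for *Il27*, −1.44 for *Il12a* and −0.74 for *Il12b*.

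Subunits of each dimer were compared per length of the gene. *Ebi3* was 3.62 times *Il27* per length in DSS (95% interval 2.25 to 6.06) and 2.84 times in ceAF colon (95% interval 1.53 to 5.61), from counts summed over 5 mice. *Il12b* was 0.639 times *Il12a* in the DSS group (95% interval 0.445 to 0.911), 1.88 times without DSS-1 (95% interval 1.12 to 3.24) and 1.03 times in the ceAF group (95% interval 0.598 to 1.80, which includes equal levels). The order of p40 and p35 RNA in DSS colon turned with a single mouse, whereas *Ebi3* was above *Il27* with and without DSS-1, the ratio without it being 2.86. These are exact binomial intervals that cover counting error only and not the spread between mice.

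The receptor gene *Il27ra* (ENSMUSG00000005465, chr8:84756923-84769218, minus strand), which encodes the chain specific to interleukin 27, carried the clearest difference. It had 7.07, 5.15, 5.15, 4.61 and 3.60 CPM in DSS-1 to DSS-5 and 1.83, 2.21, 2.69, 1.67 and 2.36 CPM in ceAF-1 to ceAF-5. The lowest DSS mouse, DSS-5, was above the highest ceAF mouse, ceAF-3, so the groups did not overlap. The means were 5.12 ± 1.26 CPM in DSS and 2.15 ± 0.409 CPM in ceAF colon (SD, n = 5 each), and the log2 fold change was −1.24 (standard error 0.226). In edgeR's quasi-likelihood test, whose order of p-values chose the genes, it ranked second, with an unadjusted value of 0.000182 that became 0.656 once adjusted over all genes by the Benjamini-Hochberg method. The gene before it was *Cd3g* (0.000174) and the gene after it *Cd8b1* (0.000297), which encode chains of the T-cell receptor complex and of the CD8 coreceptor. Part of the *Il27ra* locus is shared with *Palm3* on the opposite strand, which had 144 counts against 621 for *Il27ra*.

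*Il12rb1* (ENSMUSG00000000791, chr8:71261093-71274068, plus strand), which encodes the chain common to the receptors of interleukins 12 and 23, had 2.55, 3.05, 3.29, 3.14 and 0.960 CPM in DSS-1 to DSS-5. In ceAF-1 to ceAF-5 it had 0.992, 2.54, 1.97, 1.43 and 1.43 CPM. DSS-5 was the lowest of all 10 mice, while the other 4 DSS mice were above every ceAF mouse, DSS-1 only narrowly. The log2 fold change was −0.63 (standard error 0.354), and −0.83 without DSS-5.

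*Il12rb2* (ENSMUSG00000018341, chr6:67268302-67353172, minus strand), which encodes the chain that recruits STAT4, had 14, 32, 6, 4 and 6 counts in DSS-1 to DSS-5 and 2, 12, 9, 0 and 4 counts in ceAF-1 to ceAF-5. DSS-1 and DSS-2 were above all ceAF mice, the remaining DSS mice overlapped with the ceAF group, and the log2 fold change without a filter was −1.04. DSS-2 held 32 of the 62 counts of the DSS group, and no fold change without this mouse was computed. The abundant gene *Serbp1*, with 41697 counts, lies across part of this locus on the opposite strand, so a share of these few counts may not belong to the receptor. Per length, *Il12rb1* was 3.35 times *Il12rb2* in the DSS group (95% interval 2.52 to 4.52) and 4.72 times in the ceAF group (95% interval 3.11 to 7.43, counting error only). *Il27ra* was 2.31 times *Il12rb1* in the DSS group (95% interval 1.97 to 2.73) and 1.51 times in the ceAF group (95% interval 1.21 to 1.91).

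Of the transcription factors, *Stat4* (ENSMUSG00000062939, chr1:52026307-52146348, plus strand), which encodes the STAT activated by interleukin 12, had 7.59, 5.30, 4.61, 5.06 and 2.76 CPM in DSS-1 to DSS-5. In ceAF-1 to ceAF-5 it had 1.83, 4.17, 3.89, 1.01 and 2.64 CPM. DSS-1 was highest and ceAF-4 lowest, and DSS-5 alone among the DSS mice fell inside the ceAF range. The log2 fold change was −0.90 (standard error 0.383). It was −0.70 without DSS-1, −1.04 without DSS-5 and −0.68 without ceAF-4.

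*Tbx21* (ENSMUSG00000001444, chr11:96988897-97006157, minus strand), which encodes T-bet, the defining transcription factor of Th1 cells, had 1.74, 2.75, 2.69, 3.33 and 0.900 CPM in DSS-1 to DSS-5. In ceAF-1 to ceAF-5 it had 0.610, 1.11, 1.32, 0.179 and 0.770 CPM. Again 4 DSS mice were above every ceAF mouse, DSS-5 lay among the ceAF mice, and ceAF-4 was lowest. The log2 fold change was −1.50 (standard error 0.472), the largest in size of the 5 members that passed the filter. It was −1.58 without DSS-1, −1.69 without DSS-5 and −1.24 without ceAF-4.

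**Figure D1:**
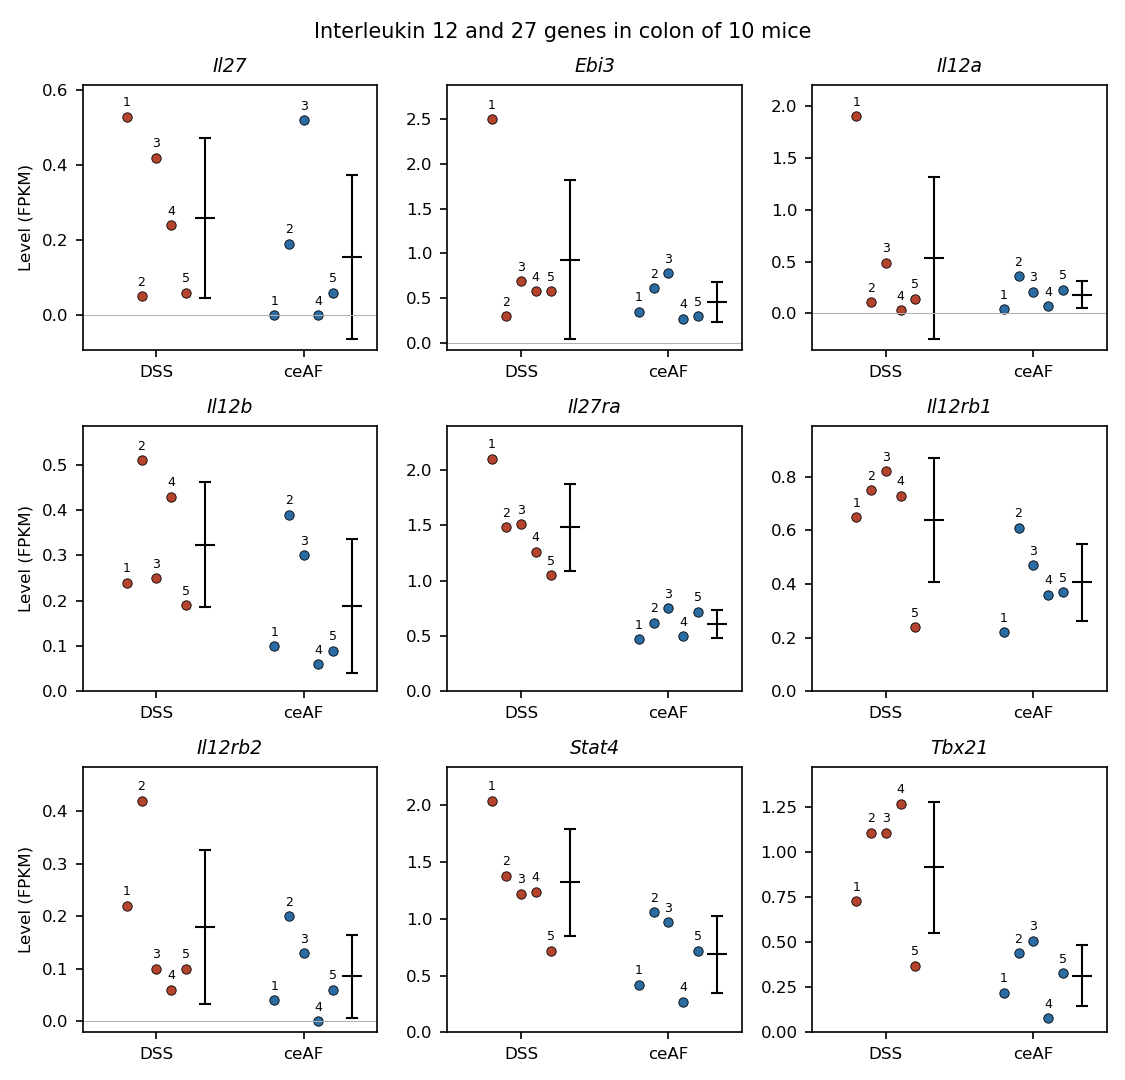
Level of each of the 9 genes in every mouse, as FPKM (vertical axes), the count scaled by exonic length and library total, with DSS mice in red, ceAF mice in blue and the mouse number beside each point. The horizontal mark with bars is the mean ± SD of 5 mice, and the groups are apart in *Il27ra* and overlap in the other 8 genes, with DSS-1 far above the rest in *Ebi3* and *Il12a*.

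Levels were then compared between the genes per length, within each mouse and over both groups together, a comparison that does not use the contrast between the groups. Ordered by the mean of log2(FPKM + 0.01) over the 10 mice, the genes were *Il27ra* (1.05 ± 0.534 FPKM, SD, n = 10), *Stat4* (1.00 ± 0.512), *Ebi3* (0.696 ± 0.659), *Tbx21* (0.617 ± 0.416), *Il12rb1* (0.522 ± 0.219), *Il12b* (0.256 ± 0.153), *Il12a* (0.358 ± 0.561), *Il27* (0.207 ± 0.212) and *Il12rb2* (0.133 ± 0.122). Receptor and transcription factor genes were thus mostly above the ligand subunits, with *Ebi3* and *Il12rb2* as the exceptions. Of the 8 pairs of neighbours in this order, 2 differed beyond the spread between mice in a two-sided exact sign-flip permutation test with Benjamini-Hochberg adjustment over the 8 pairs. *Il12rb1* was above *Il12b* in 10 of 10 mice, by 1.13 on the log2 scale (SD 0.688, exact p = 0.00195, the smallest the test can give, adjusted p = 0.0156). *Stat4* was above *Ebi3* in 8 of 10 mice and equal at 2 decimals in 1, ceAF-4, with 0.27 FPKM each. The mean difference was 0.67 on the log2 scale (SD 0.712, exact p = 0.0117, adjusted p = 0.0469). This call was lost with a pseudocount of 0.1 and was found in 2 of 12 alternatives. *Il12rb1* above *Il12b* was called in 6 of these 12, and in 5 others the gene next above *Il12b* was *Tbx21*, which differed from it. In the remaining alternative, without DSS-4, neither was called, and the only call was *Il12b* above *Il12rb2*. The other 6 pairs of neighbours did not differ beyond their spread, among them *Il27ra* and *Stat4* (exact p = 0.543) and *Tbx21* and *Il12rb1* (exact p = 1.0) and *Il12b* and *Il12a* (exact p = 0.691). Not every pair had the same order in both groups, which is described here and was not tested. Mice called equal had the same FPKM at the 2 decimals deposited, although their counts per length may differ. *Tbx21* was above *Il12rb1* in 5 of 5 DSS mice (0.918 ± 0.365 and 0.638 ± 0.231 FPKM, SD, n = 5). In ceAF colon it was above it in 1 mouse, equal at 2 decimals in 1 (ceAF-1, 0.22 FPKM each) and below it in 3 (0.316 ± 0.172 and 0.406 ± 0.145, SD, n = 5). *Il27ra* was above *Stat4* in 5 of 5 DSS mice (1.48 ± 0.393 and 1.32 ± 0.474) and in 2 of 5 ceAF mice (0.612 ± 0.126 and 0.688 ± 0.341). The 2 genes were equal at 2 decimals in ceAF-5, at 0.72 FPKM each. By number of mice the order also turned for *Ebi3* and *Tbx21* (*Ebi3* above in 2 of 5 DSS and 4 of 5 ceAF mice). It turned too for *Il27* and *Il12rb2* (*Il27* above in 3 of 5 DSS mice, and in ceAF colon above in 1, equal at 2 decimals in 2 and below in 2). Of these 2 mice, ceAF-4 had 0 counts of both genes and ceAF-5 had 0.06 FPKM of each. By group mean the order turned for *Il12b* and *Il12a* (0.324 and 0.534 FPKM in DSS, 0.188 and 0.182 FPKM in ceAF).

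The receptor and transcription factor genes are known to be expressed by T cells, and the T-cell markers moved with them. All 12 T-cell markers were lower in ceAF colon, 12 of 12 at an unadjusted p-value under 0.05 (beside 3.67% of all genes). The paper had already reported *Cd3d*, *Cd3e*, *Cd3g*, *Cd8a* and *Lck* as differentially expressed between these groups. The count is therefore a description and not independent of the contrast. The 12 markers had a median log2 fold change of −1.23 against 0.01 for all genes compared. Their summed level was 186, 198, 192, 208 and 79.1 CPM in DSS-1 to DSS-5 and 77.1, 97.0, 80.8, 45.3 and 56.8 CPM in ceAF-1 to ceAF-5, the most abundant gene was *Cd8a*, and 0 of the markers were at 0 in all mice. Apart from DSS-5, every DSS mouse was above every ceAF mouse in this sum. NK-cell markers were close to the limit of detection, 1 of 4 (*Klrb1c*) passing the filter, with sums between 0.600 and 3.47 CPM.

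Divided by the summed T-cell markers, *Il27ra* was at 3.17 ± 0.974 per 100 CPM of markers in DSS and 3.17 ± 0.819 in ceAF colon (SD, n = 5 each). *Tbx21* was at 1.29 ± 0.258 and 1.06 ± 0.482, and *Stat4* at 3.02 ± 0.744 and 3.67 ± 1.26. *Il12rb1* was at 1.47 ± 0.188 in the DSS and 2.40 ± 0.685 in the ceAF group. Relative to the markers *Il27ra* thus had nearly equal means in the groups, while 4 of 5 ceAF mice were above all DSS mice in *Il12rb1*, ceAF-1 being the exception at 1.29. The ratio of *Il27ra* is a description only, since gene and markers stood high in the order of p-values of the same contrast. *Cd3g* ranked 1, *Il27ra* 2, *Lck* 7 and *Thy1* 8. With the T-cell marker score as a covariate, the log2 fold change of ceAF against DSS was −0.77 for *Il27ra*, −0.05 for *Ebi3*, 0.01 for *Tbx21*, 0.19 for *Stat4* and 0.64 for *Il12rb1*. For *Il27ra* the ratio and the covariate thus differed, and the part of T-cell content in its difference was not tested.

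**Figure D2:**
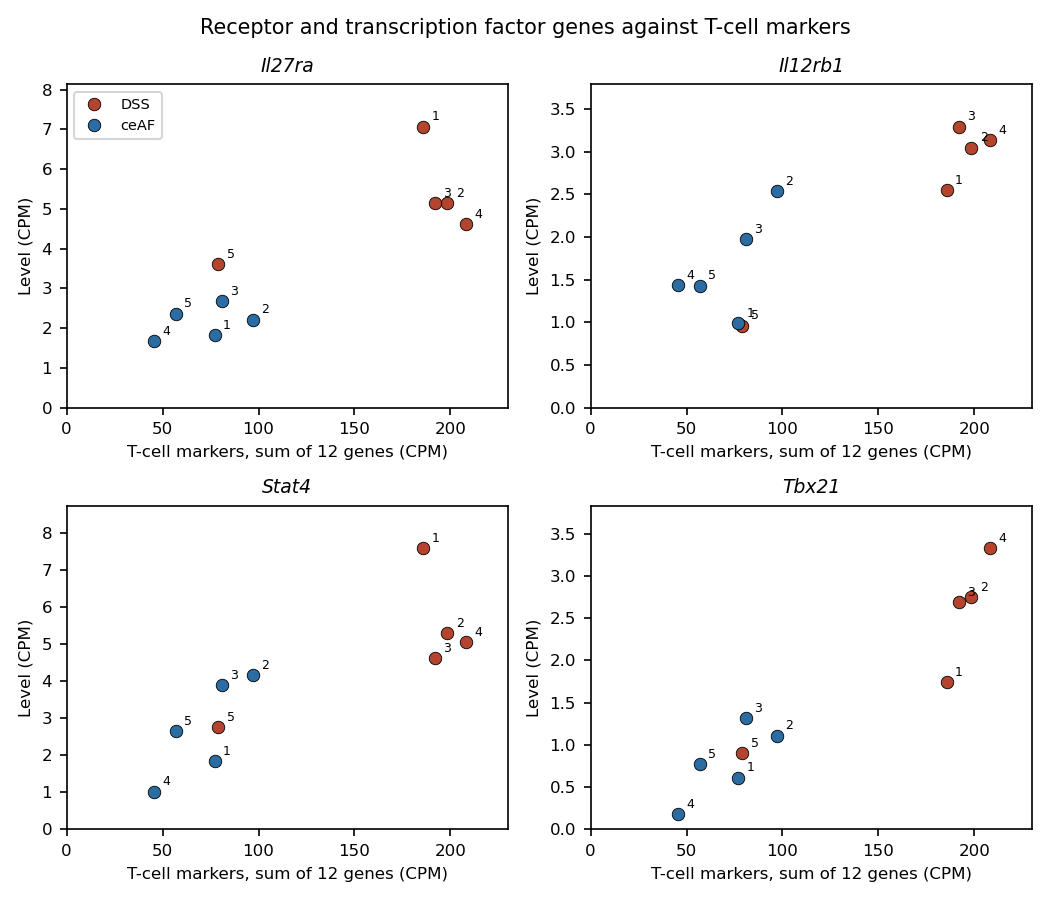
Level of *Il27ra*, *Il12rb1*, *Stat4* and *Tbx21* (vertical axes, CPM) against the summed level of 12 T-cell markers (horizontal axes, CPM), 1 point per mouse with its number, DSS in red and ceAF in blue. DSS-5 lies with the ceAF mice at 79.1 CPM of T-cell markers, yet its *Il27ra* level of 3.60 CPM is above that of every ceAF mouse.

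Whether the members follow T-cell markers from mouse to mouse was tested inside the groups, with the group in the model. The difference between the group means therefore does not enter. The p-value that chose *Il27ra* also depends on its spread inside the groups, so its slope is not independent of the choice. The score of a mouse was the mean over the markers of the log2 CPM relative to each gene's mean over the mice. In edgeR's quasi-likelihood test 0 of 16545 genes (0%) followed the T-cell score at an adjusted p-value under 0.05, and 0 of the 5 members did. At an unadjusted p-value under 0.05, 990 genes (5.98%) had a slope above 0, the 12 markers of the score included, and 3 of the 5 members were among them. Their change in log2 level per unit of score was 0.98 for *Il12rb1* (standard error 0.244, adjusted p = 0.199), 1.24 for *Tbx21* (standard error 0.339, adjusted p = 0.219) and 0.93 for *Stat4* (standard error 0.280, adjusted p = 0.264). For *Il27ra* the slope was 0.38 (standard error 0.203, adjusted p = 0.526), and for *Ebi3* it was 0.75 (standard error 0.559, adjusted p = 0.666). Without DSS-5 the count of genes was 631, and *Il12rb1* was no longer among them, while *Tbx21* and *Stat4* were. Without ceAF-1 and without ceAF-5, 13 and 11 genes passed the adjusted threshold, 0 of them members.

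Macrophages and dendritic cells, the main known sources of the ligands, were followed by 14 markers. All 14 were lower in ceAF colon, 2 of them at an unadjusted p-value under 0.05 (beside 3.67% of all genes), and their median log2 fold change was −0.47. Their sums were 306, 307, 302, 333 and 197 CPM in DSS-1 to DSS-5 and 183, 261, 285, 187 and 224 CPM in ceAF-1 to ceAF-5, *Irf8* was the most abundant, and 0 were at 0 in all mice. DSS-5 lay among the ceAF mice in this sum too. Within groups, 14 genes (0.0846%) followed the myeloid score at an adjusted p-value under 0.05, 0 of them members and 2 of them, *C1qa* and *C1qc*, markers that make up the score. This count was 192 without DSS-5 and 41 without ceAF-1, and it was between 0 and 3 in 7 of the other fits without 1 mouse. At an unadjusted p-value under 0.05, 1091 genes (6.59%) had a slope above 0, with 4 of the 5 members among them. The slope was 1.14 for *Il12rb1* (standard error 0.326, adjusted p = 0.230), 1.08 for *Stat4* (standard error 0.351, adjusted p = 0.293), 1.31 for *Tbx21* (standard error 0.480, adjusted p = 0.348) and 0.53 for *Il27ra* (standard error 0.227, adjusted p = 0.443). *Ebi3*, the only ligand gene that could be tested, had a slope of 0.89 (standard error 0.681, adjusted p = 0.704). Without DSS-5, 1752 genes and 1 member, *Stat4*, were at that threshold. *Il27ra* was not at it in 8 of the 10 fits without 1 mouse, *Tbx21* in 2 and *Il12rb1* in 1, while *Stat4* was in all 10. The myeloid score was not specific to myeloid cells. DSS-5 was the lowest DSS mouse in both scores. On the myeloid score the T-cell markers *Cd4* and *Cd2* had slopes of 1.56 (standard error 0.266) and 1.47 (standard error 0.305), but *Cd3g* had 0.22 and *Cd8a* 0.01. The plasma cell gene *Jchain* had 2.15 (standard error 0.231). Slopes of members on this score thus cannot be assigned to myeloid cells. Neutrophil markers were lower in ceAF colon in 5 of 5 genes, 5 of 5 at an unadjusted p-value under 0.05 (beside 3.67% of all genes). Their median log2 fold change was −3.98. Their sums were 1519, 13.6, 168, 16.7 and 67.3 CPM in DSS-1 to DSS-5 and 1.68, 12.1, 12.2, 37.8 and 18.6 CPM in ceAF-1 to ceAF-5. *S100a9* was the most abundant of them, none was at 0 in all mice, and the part of the myeloid cells and neutrophils in the differences of the members was not tested.

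Among the members, the within-group deviations of *Il27ra* and *Stat4* had a Pearson correlation of 0.858 over the 10 mice, those of *Stat4* and *Tbx21* 0.835, and those of *Ebi3* and *Il12rb1* 0.198. Across 15228 genes with at least 1 CPM, the genes most like *Il27ra* by this measure were *Ptprc* (0.983), *Rassf5* (0.978), *Pik3ap1* (0.976), *Dock10* (0.976) and *Arhgdib* (0.970). *Ptprc* encodes CD45, the phosphatase on all leukocytes. The genes most like *Tbx21* were *Nsrp1* (0.978), *Ank3* (0.970), *Xkr9* (0.967), *Klrk1* (0.961) and *Arhgap8* (0.960), of which *Klrk1* encodes the NKG2D receptor of NK and cytotoxic T cells. Between the groups these genes did not go with *Tbx21*. Their log2 fold changes were 0.02, 0.53, 0.25, −0.28 and 0.44 in this order, beside −1.50 for *Tbx21*. The correlation coefficients share the 10 libraries and describe them only.

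The other genes of the pathway were taken from 4 lists made from general knowledge, 47 genes in all, of which 40 passed the filter. Since earlier results of these data were known when the lists were made, the counts below describe these genes and are not independent of the contrast. Of these, 32 were lower and 8 higher in ceAF, with a median log2 fold change of −0.56 against 0.01 for all genes compared. At an unadjusted p-value under 0.05, 15 were lower (37.5%, beside 3.67% of all genes) and 0 were higher (beside 3.26%), and 0 passed adjustment over all genes. Without DSS-1 the count of lower genes was 11, and without ceAF-4 it was 10.

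Th1 regulators and products held most of these genes, with 10 of 17 at an unadjusted p-value under 0.05, all lower. *Ifng*, the signature cytokine of Th1 cells, was at 2.95 ± 1.37 CPM in DSS and 0.783 ± 0.589 CPM in ceAF colon (SD, n = 5 each), a log2 fold change of −1.92 (standard error 0.555). The log2 fold change was −1.70 for the chemokine *Ccl5* (standard error 0.351), −1.68 for the granule gene *Nkg7* (standard error 0.466) and −1.40 for the chemokine receptor *Cxcr6* (standard error 0.350). In each of these 4 genes DSS-5 lay inside the ceAF range, and in *Nkg7* so did DSS-1. *Lta* did not pass the filter. The interferon gamma receptor genes *Ifngr1* and *Ifngr2* had log2 fold changes of 0.02 and 0.04 and were named after their values were seen.

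Of the receptor partners and kinases, 2 of 8 were lower at an unadjusted p-value under 0.05 and 0 were higher. *Socs3*, a feedback inhibitor induced by STAT3, had a log2 fold change of −1.54 (standard error 0.475), and *Il6st*, which encodes the gp130 chain that pairs with the interleukin 27 receptor, had −0.53 (standard error 0.208). Both differences came mostly from DSS-1 and DSS-5. *Socs3* had 151 and 194 CPM in these mice, 39.6 to 48.1 CPM in the other DSS mice and 23.6 to 51.2 CPM in the ceAF mice, and *Il6st* had 101 CPM in both, 53.9 to 63.7 CPM in the other DSS mice and 36.6 to 62.7 CPM in the ceAF mice. *Socs1* had −0.77 (standard error 0.406) and *Stat3* −0.24 (standard error 0.137), neither under that threshold. *Il23a* and *Il23r*, the ligand and receptor chains of interleukin 23, were too low to be compared, with 92 and 22 counts over all mice.

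Genes known to respond to interleukin 27 in T cells were lower at an unadjusted p-value under 0.05 in 2 of 9 cases, the checkpoint receptors *Lag3* (log2 fold change −1.32, standard error 0.351) and *Tigit* (−0.94, standard error 0.350). *Il10* had −1.03 (standard error 0.505) and *Nfil3* −1.16 (standard error 0.614), neither under that threshold. In the programs that oppose Th1, 1 of 6 genes was lower at that threshold, *Il21* with −2.26 (standard error 0.656), a cytokine of follicular and Th17 cells. *Il4*, the Th2 cytokine, had 0.49 (standard error 0.328), *Gata3* −0.59 (standard error 0.443) and *Bcl6* −0.40 (standard error 0.263). *Il5*, *Il17a* and *Il17f* did not pass the filter, and *Il13* had 0 counts in every mouse.

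**Figure D3:**
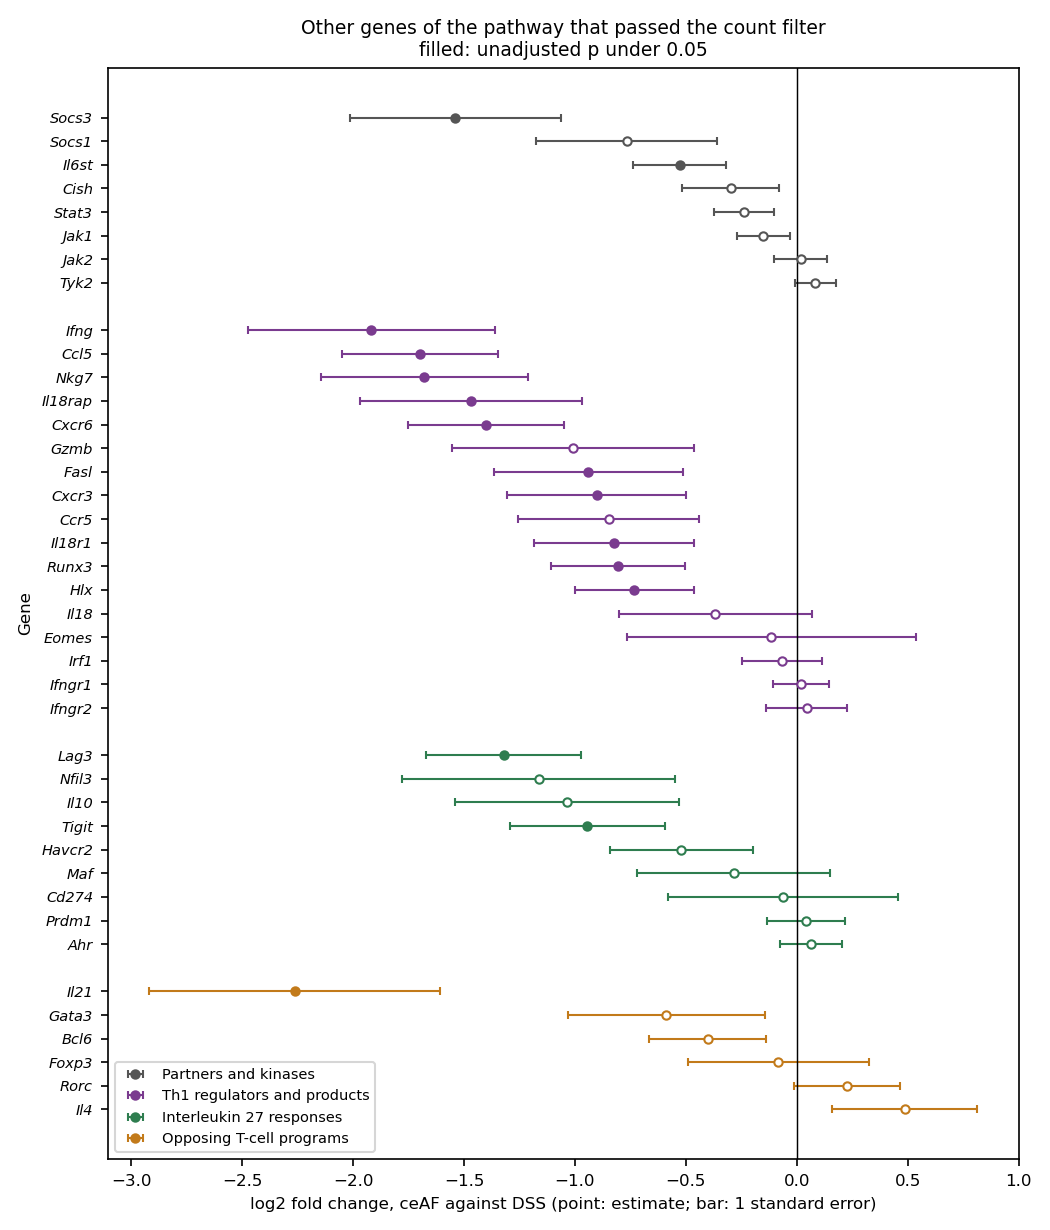
Log2 fold change of ceAF against DSS (horizontal axis) for the 40 other genes of the pathway that passed the filter, as estimate ± 1 standard error, coloured by list, with filled points for an unadjusted p-value under 0.05. The 15 filled points are all below 0, and 10 of them are Th1 regulators and products.

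RefSeq promoters of GRCm38.p6, from 250 bases before to 50 bases after a gene's start, matched 6 of the 9 genes with 8 promoters, leaving *Il27ra*, *Il27* and *Il12rb1*. Motifs were searched on both strands as TTCNNNGAA for STAT proteins, AGGTGTGA for T-box factors such as T-bet, and GAAA, any 2 bases and GAAA for interferon regulatory factors. Of 32851 promoters, 8.3% held the STAT motif, 1.28% the T-box motif and 3.44% the interferon response motif. Among the 8 promoters, the STAT motif was found in that of *Il12rb2* (chr6:67376139-67376438, minus strand, bases 128 to 136) and the interferon response motif in 1 of the 2 promoters of *Stat4* (chr1:52007990-52008289, plus strand, bases 154 to 163). The T-box motif was in 0 of the 8. Promoter positions are those of GRCm38.p6, from which the deposited gene positions given above differ, so no distance between a gene and its promoter can be read from them. The promoters with a match are given 5′ to 3′ with the matching letters in capitals, and a match is a description of the sequence and not a binding site.
Il12rb2: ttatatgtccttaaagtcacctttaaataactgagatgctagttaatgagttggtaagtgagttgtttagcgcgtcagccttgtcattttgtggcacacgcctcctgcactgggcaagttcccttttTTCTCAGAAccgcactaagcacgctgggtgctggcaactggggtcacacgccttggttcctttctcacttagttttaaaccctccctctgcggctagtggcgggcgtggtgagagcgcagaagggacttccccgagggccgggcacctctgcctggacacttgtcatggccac
Stat4: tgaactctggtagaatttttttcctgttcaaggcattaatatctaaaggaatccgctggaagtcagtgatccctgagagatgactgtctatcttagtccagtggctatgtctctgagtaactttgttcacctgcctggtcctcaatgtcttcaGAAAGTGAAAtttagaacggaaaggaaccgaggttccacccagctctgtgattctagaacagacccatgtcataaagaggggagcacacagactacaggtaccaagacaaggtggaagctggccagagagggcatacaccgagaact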

How the data were processed

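Total RNA of colon from 5 DSS and 5 ceAF mice was made into poly(A) libraries per the labels. The submitters' processing notes name cutadapt 1.9.1 and HISAT2 2.2.1. The counting program and the genome build are not given in the sources used here, and gene positions are printed as deposited. The authors deposited raw read counts per gene and FPKM, with the exonic length of each gene in bases, and 100% of 131360 FPKM values of at least 1 were recomputed from the counts within 1%. Of 56691 genes, 2639 have no symbol.

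Genes were kept by filterByExpr with a minimum count of 10, libraries were scaled by TMM, and edgeR 4.0.16 (quasi-likelihood test, two-sided, Benjamini-Hochberg) was run in R 4.3.3. CPM on the log2 scale has a prior count of 1. Alternatives used limma 3.58.1 and DESeq2 1.42.0. Scripts were tested on simulated data. Figures were drawn with matplotlib 3.10.9. The members and the gene lists were chosen with earlier results of these data known. Named from each list were the 4 genes with the smallest unadjusted p-value and those below the filter, together with the neighbours of *Il27ra* in the order of p-values and the 5 genes most like *Il27ra* and *Tbx21*. Some genes are not reported here and were also left out of the list counts, which otherwise cover every gene of a list, named or not.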

Additional observations from a re-analysis of the deposited data

Results flagged for a closer look

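Of 38 sets of 5 mice examined (levels of the 9 genes, scores of the marker lists and total counts), 6 held a mouse whose gap to the nearest other mouse took up an unusually large share of the range of its group. Genes and scores were taken on the log2 scale, where low values lie further apart than in CPM, and total counts as they are. Chance alone gives about 1 such case in 20. In *Il12rb1* the gap of DSS-5 (log2 CPM 0.03 against 1.38 to 1.75 in the other DSS mice) was 0.789 of the range. DSS-5 also stood apart in the T-cell marker score, with a share of 0.879 and a score of −0.58 against 0.82 to 1.02, and in the myeloid marker score, with a share of 0.756 and a score of −0.52 against 0.28 to 0.54. DSS-1 stood apart in the B-cell marker score, with a share of 0.883 and a score of 2.42 against −0.39 to −0.06. ceAF-1 stood apart in the plasma cell score, with a share of 0.834 and a score of −2.33 against −0.06 to 0.39. Its *Mzb1* count was 0, and its sum of the plasma cell markers, 368 CPM, was above the 340 CPM of DSS-5. The total count of DSS-2 (19901549 against at most 16611021) gave a share of 0.908.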

How the results depend on the processing

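The log2 fold changes of the 5 members that passed the filter were recomputed 99 times, and 95 values were below 0. The values above 0 were 0.038 for *Ebi3* with voom and sample quality weights, and, with the T-cell marker score as covariate, 0.64 for *Il12rb1*, 0.19 for *Stat4* and 0.012 for *Tbx21*. With that covariate *Il27ra* was −0.77 and *Ebi3* −0.05. With limma-trend on log2(FPKM + 1) all 5 members were closer to 0, with *Il27ra* at −0.61, *Tbx21* at −0.53, *Stat4* at −0.46, *Ebi3* at −0.32 and *Il12rb1* at −0.21. With limma-trend on log2(FPKM + 0.1) the values were −1.13, −1.32, −0.91, −0.64 and −0.51 in the same order. The cause was not tested. Without 1 mouse, *Il27ra* stayed between −1.33 and −1.09, and *Ebi3* between −1.21 and −0.17.

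Genes called after adjustment were 25 with DESeq2 and 0 to 3 without 1 mouse, the 3 without DSS-5. Genes lower at an unadjusted p-value numbered 1246 with voom, 976 without a filter and 317 to 932 without 1 mouse. Genes higher numbered 1206 with voom, 308 and 291 with limma-trend on log2(FPKM + 1) and log2(FPKM + 0.1), and 383 to 913 without 1 mouse (840 without DSS-5 and 913 without ceAF-1). Of the other pathway genes, 1 was higher with voom, and 10 to 18 were lower over all alternatives. Genes following the T-cell score numbered 0 to 13 without 1 mouse, and those following the myeloid score 0 to 192. At an unadjusted p-value, 631 to 1290 had a slope above 0 on the T-cell and 937 to 1752 on the myeloid score. Neighbouring genes that differed in level numbered 1 with log2(FPKM + 0.1), 1 with counts per kilobase and 1 to 2 without 1 mouse.

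With the replicate number as a block, 341 genes were lower and 353 higher. Same-numbered mice correlated between −0.249 and 0.286, over 0.1 in 1 of 5 pairs, so the numbers do not pair the mice.

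At this depth *Il27*, *Il12a*, *Il12b* and *Il12rb2* had between 36 and 106 counts over all mice, too few for the comparison across genes, and no alternative but the one without a filter gave them a value.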
